A study of Mus musculus with 30 samples.

Results

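The ErbB receptor family and its regulators were followed through the sorted epithelium of the mouse mammary gland (MG). The set holds the receptors Egfr, Erbb2, Erbb3 and Erbb4, the ligands Hbegf, Tgfa, Btc and Nrg1, the sheddase Adam17 and the inhibitor Errfi1. The members were chosen by name and all 10 were among the 11137 genes of the deposited table, so none was lost to the filter on low counts. Transcripts were counted by 3′ end sequencing with unique molecular identifiers (UMIs) in 30 libraries of luminal and basal cells from 17 mice, 13 of which gave both lineages. All mice carried K8rta, TETO CRE and mTmG, that is a doxycycline-dependent Cre driven by the keratin 8 promoter and a reporter that turns green after recombination. Control mice of this genotype are called K8imTmG, and K8iΔRank mice carried RANK fl/fl in addition. All received 1 mg/ml doxycycline in their water, from week 3 to week 8 of age by the labels and from a later start by the methods. Virgin mice were compared with age-matched parous mice, taken about a month after involution began. By the methods, pups of control mice were removed at lactation day 10, while K8iΔRank mice failed to lactate at day 1. In parous groups, genotype and length of lactation thus cannot be told apart. Luminal cells were sorted as GFP+ CD49f low CD24 high and basal cells as CD49f high CD24 low. Since the keratin 8 promoter drives the Cre, basal cells of K8iΔRank mice keep Rank, and K8iΔRank females fail to lactate at their first pregnancy. Luminal libraries came from 3 virgin K8imTmG, 3 virgin K8iΔRank, 5 parous K8imTmG and 4 parous K8iΔRank mice, and basal libraries from 3, 4, 4 and 4 mice of the same groups. Mouse numbers in the titles are the only sign that libraries of a group came from separate animals, and p-values measure the spread between these libraries.

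ErbB receptors are tyrosine kinases that signal as dimers through the Ras-Erk and Pi3k-Akt pathways. Erbb2 binds no known ligand and Erbb3 has little kinase activity of its own, so both work mainly as partners. Tgfa binds Egfr, Hbegf and Btc bind Egfr and Erbb4, and neuregulin 1, encoded by Nrg1, binds Erbb3 and Erbb4. The ligands are made as membrane proteins and released by sheddases such as Adam17, and Errfi1 is a feedback inhibitor induced by receptor signalling. In the MG, Egfr signalling is known for its role in ductal growth at puberty and Erbb4 for its role in alveolar differentiation and lactation.

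Values are normalized counts, that is UMI-deduplicated reads divided by the size factor of the library. Libraries held 340445 to 3130419 reads, and 1 read was worth 0.381 to 5.43 normalized counts. Medians were lowest in basal virgin K8imTmG (437873 reads) and basal parous K8imTmG cells (720970 reads). The 8 luminal markers summed to 4684 to 12817 normalized counts in luminal and 733 to 2044 in basal libraries, and the 10 basal markers to 65.3 to 331 and 10952 to 17878. Basal libraries also held more counts of Fabp4, the only adipocyte marker in the table (111 to 2587 against 4.40 to 50.5), and of 3 endothelial markers (33.5 to 624 against 3.36 to 35.9), and the part of these cells in the lineage differences below was not tested. No marker of these lists was at 0 in all libraries of a lineage. The 6 fibroblast markers summed to 98.4 to 957 in luminal and 550 to 1003 in basal libraries. These ranges overlapped, but the median was higher in basal libraries (836 against 245). The median sum of 2 immune markers was also higher there (47.8 against 13.8). The part of fibroblasts and immune cells in the lineage differences was not tested either. Rank, listed as Tnfrsf11a, was not lower in virgin luminal libraries labelled K8iΔRank, with 14.1 ± 4.51 (SD, n = 3) in K8imTmG against 18.1 ± 6.16 (SD, n = 3) in K8iΔRank cells. In parous luminal libraries it was 12.8 to 64.9 in K8imTmG and 27.0 to 41.1 in K8iΔRank cells. Reads from the 3′ end do not show a deleted internal exon, and by qPCR the paper found Rank reduced in sorted K8iΔRank luminal cells. Genotypes are therefore those of the labels.

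The libraries also stood apart on the lectin gene Clec2d, with 65.6 to 199 normalized counts in 14 libraries and 0.641 to 8.68 in 16. The 14 Clec2d-high libraries were shallower, with a median of 878946.5 reads against 2478110. All luminal virgin K8imTmG and luminal parous K8iΔRank libraries were Clec2d-low, and all luminal virgin K8iΔRank libraries were Clec2d-high. All basal K8imTmG libraries were Clec2d-high and all basal virgin K8iΔRank libraries Clec2d-low. Between genotypes of virgin cells in either lineage, and between stages of luminal K8iΔRank cells, this split and the groups cannot be told apart. Only luminal parous K8imTmG (2 high, 3 low) and basal parous K8iΔRank cells (2 high, 2 low) held both kinds. Within luminal parous K8imTmG cells Adam17 was 173 and 176 in the Clec2d-high and 98.0 to 108 in the Clec2d-low libraries. There Hbegf (40.3 and 44.7 against 98.6 to 123) and Egfr (31.9 and 41.5 against 56.8 to 72.7) were lower on the Clec2d-high side. The sides did not overlap for these 3 of 9 members above the filter, where 53.5% of all genes did not overlap. Within basal parous K8iΔRank cells Adam17 was again higher (116 and 119 against 90.1 and 95.5), and Erbb2 (11.2 and 14.0 against 20.6 and 23.8) and Tgfa (26.3 and 41.4 against 46.2 and 47.6) were lower, on the Clec2d-high side. These were 3 of 7 members, against 59.7% of all genes.

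For Egfr, Erbb2, Erbb3, Erbb4, Btc and Nrg1 the difference between lineages was larger than any between stages or genotypes, which was not so for Hbegf, Tgfa and Adam17 and was so by little for Errfi1. Erbb2, Erbb3, Erbb4 and the ligands Btc, Hbegf and Tgfa were higher in luminal cells, Egfr, Nrg1 and Errfi1 were higher in basal cells, and Adam17 did not pass the test. The test was limma on log2(normalized count + 1) over all genes, with a term for each stage and genotype, and a member was called at a Benjamini-Hochberg adjusted p under 0.05. It called 9 of 10 members, 6 with the higher level in luminal and 3 with the higher level in basal cells, where 55.7% of 11133 genes were called, 28.7% toward luminal and 27% toward basal cells. For Erbb3 and Btc every luminal library lay above every basal one, as for 3.42% of genes, and for Nrg1 every basal library lay above every luminal one, as for 6.14% of genes. Btc and Erbb4 passed the filter of above 10 normalized counts only through luminal libraries, and Nrg1 only through basal ones. A low level in the other lineage was thus no bar to entry, for these members as for all genes. These are bulk libraries, so fewer cells with a transcript and less transcript per cell cannot be told apart. DESeq2 on recovered reads called the same number of 9 members and edgeR called 8.

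**Figure D1:**
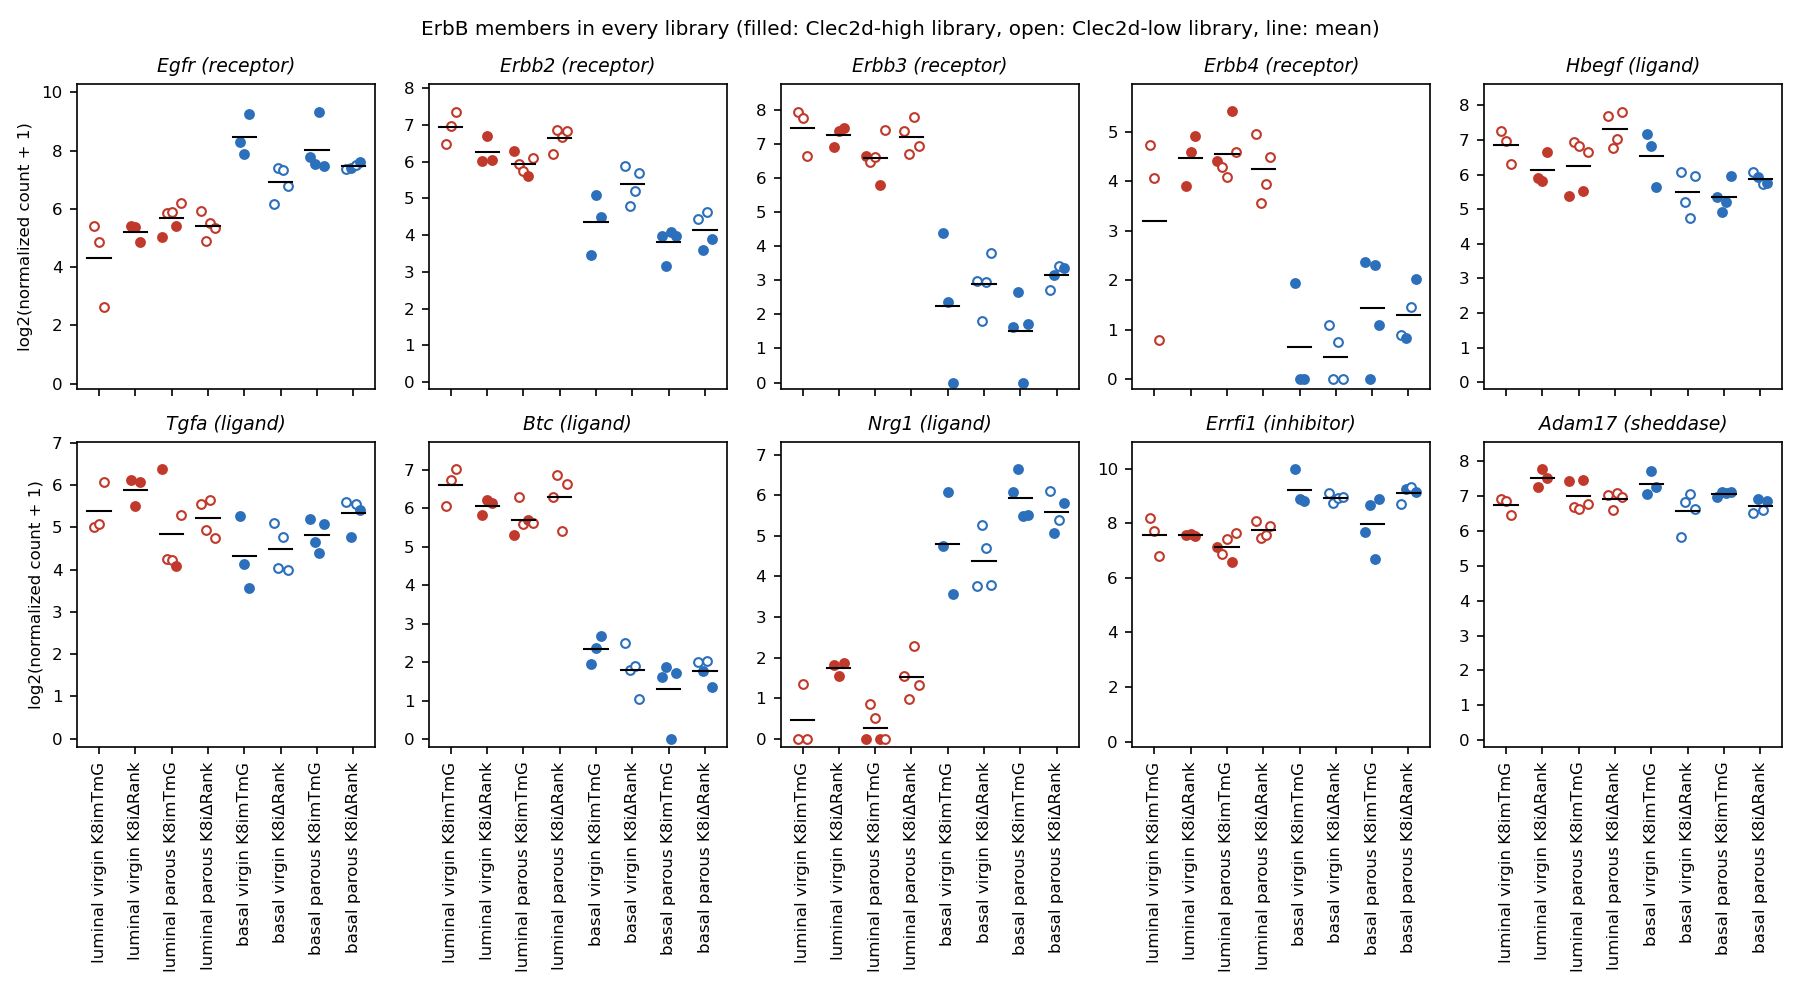
Normalized counts of the 10 members in each of the 30 libraries, on a log2(normalized count + 1) axis, grouped by lineage, stage and genotype, with filled points for Clec2d-high and open points for Clec2d-low libraries and a line for the group mean. Luminal (red) and basal (blue) points are apart for Erbb3, Btc and Nrg1, and lie over each other for Adam17.

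The start regions of the 4 members with the largest lineage difference among those with a RefSeq entry are shown to set them beside the luminal (Erbb2, Erbb4, Btc) and basal (Egfr) pattern. Each runs from 250 bases before to 50 bases after the transcript start, in GRCm38.p6 and 5′ to 3′ on the strand of the gene. Entries were found for 7 of the 10 members. Capitals mark a match, on either strand, to the TATA box TATAAA, the box CCAAT, the GC box GGGCGG, the Ets letters CCGGAAG or the AP-1 letters TGANTCA, none of which overlapped another here.
Egfr, chr11:16751953-16752252, plus strand: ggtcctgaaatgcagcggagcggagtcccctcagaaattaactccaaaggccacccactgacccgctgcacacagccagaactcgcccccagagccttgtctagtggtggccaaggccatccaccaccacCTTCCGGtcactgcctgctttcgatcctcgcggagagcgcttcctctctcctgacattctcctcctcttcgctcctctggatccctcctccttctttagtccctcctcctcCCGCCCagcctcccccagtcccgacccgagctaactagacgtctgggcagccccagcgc
Erbb2, chr11:98412234-98412533, plus strand: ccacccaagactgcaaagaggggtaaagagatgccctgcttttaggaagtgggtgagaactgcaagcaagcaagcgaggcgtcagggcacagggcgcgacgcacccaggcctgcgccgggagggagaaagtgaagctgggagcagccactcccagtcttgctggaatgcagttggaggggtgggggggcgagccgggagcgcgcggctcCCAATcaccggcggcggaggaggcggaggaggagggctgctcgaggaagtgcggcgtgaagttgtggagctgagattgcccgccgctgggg
Erbb4, chr1:69108010-69108309, minus strand: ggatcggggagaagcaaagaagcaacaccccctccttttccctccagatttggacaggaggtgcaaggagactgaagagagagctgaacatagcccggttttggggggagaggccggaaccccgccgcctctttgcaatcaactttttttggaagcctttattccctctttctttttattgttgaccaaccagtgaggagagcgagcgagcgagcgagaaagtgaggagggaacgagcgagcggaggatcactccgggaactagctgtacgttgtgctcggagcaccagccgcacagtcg
Btc, chr5:91402945-91403244, minus strand: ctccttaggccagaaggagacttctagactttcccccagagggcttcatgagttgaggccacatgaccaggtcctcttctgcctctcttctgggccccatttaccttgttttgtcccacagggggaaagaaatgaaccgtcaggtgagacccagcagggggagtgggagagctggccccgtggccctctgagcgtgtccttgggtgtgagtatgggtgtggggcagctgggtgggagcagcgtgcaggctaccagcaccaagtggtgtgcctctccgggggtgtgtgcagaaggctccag
The Egfr region held an Ets match starting 120 bases and a GC box starting 9 bases before the start, both read on the opposite strand. The Erbb2 region held a CCAAT match 41 bases before the start. The Erbb4 and Btc regions held none of the 5 motifs. Of 32851 regions of this length in the table, 8.86% held the Ets letters, 35.7% the GC box, 37.4% CCAAT, 13.6% TATAAA and 7.81% the AP-1 letters. All 4 were richer in G and C (55.3% to 66.0%) than the median region (52.7%). The 3 luminal regions thus shared no match among these motifs.

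Among the receptors, Egfr stood alone in being higher in basal cells. Egfr (ENSMUSG00000020122.18, GRCm39 chromosome 11, 16702198 to 16868158, plus strand) ranged from 5.15 to 72.7 normalized counts in luminal libraries (median 41.5) and from 70.4 to 645 in basal libraries (median 180.0). Of the 15 basal libraries 14 lay above the highest luminal one. The luminal minus basal log2 difference was −2.57 (SE 0.23, limma adjusted p = 1.19e-10). By group means, all 4 basal groups (127 ± 45.5 to 385 ± 197, SD) lay above all 4 luminal groups (24.9 ± 18.4 to 52.3 ± 15.9), but the ranges of each pair of neighbours in this order overlapped.

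Erbb2, the partner without a ligand of its own (ENSMUSG00000062312.7, chromosome 11, 98303203 to 98328542, plus strand), ran the other way. It ranged from 47.9 to 164 in luminal (median 77.3) and from 8.02 to 57.7 in basal libraries (median 20.6), with 13 of 15 luminal libraries above every basal one. The log2 difference was 2.02 (SE 0.17, limma adjusted p = 1.60e-11). Group means ran from 126 ± 37.9 (SD, n = 3) in luminal virgin K8imTmG to 13.3 ± 3.59 (SD, n = 4) in basal parous K8imTmG cells, and each group overlapped the next.

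Erbb3, the neuregulin receptor that signals through its partners, had the widest separation of the receptors. Erbb3 (ENSMUSG00000018166.10, chromosome 10, 128403392 to 128425811, minus strand) ranged from 54.3 to 247 in luminal (median 121) and from 0 to 20.1 in basal libraries (median 5.58), with no overlap. The log2 difference was 4.68 (SE 0.32, limma adjusted p = 2.17e-13), and it ranged from 3.96 to 4.95 over the alternatives. The mean of the luminal libraries was 22.5 times that of the basal ones. The only gap between neighbouring groups was that between luminal parous K8imTmG (102 ± 42.2, SD, n = 5) and basal parous K8iΔRank cells (8.14 ± 1.86, SD, n = 4). The basal level rests on 115 reads in all, and 6 of 15 basal libraries held 3 reads or fewer.

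Erbb4 (ENSMUSG00000062209.17, chromosome 1, 68071345 to 69147619, minus strand) was low everywhere and near absent from basal libraries. Luminal libraries held 0.736 to 41.5 normalized counts (median 20.2), and basal libraries 0 to 4.19 (median 0.858), with 5 of 15 at 0. The whole basal lineage held 21 reads and 13 of its libraries were at or under 3 reads, against 446 reads in luminal cells. The log2 difference of 3.15 (SE 0.34, limma adjusted p = 4.62e-09) depends on the pseudocount at such counts and ranged from 2.05 to 3.93 over the alternatives, called in all 40. The lowest luminal value came from virgin K8imTmG mouse 538, whose library also had the lowest luminal Egfr (5.15) and the highest luminal sum of fibroblast markers (957, against 245 and 251 in its group).

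**Figure D2:**
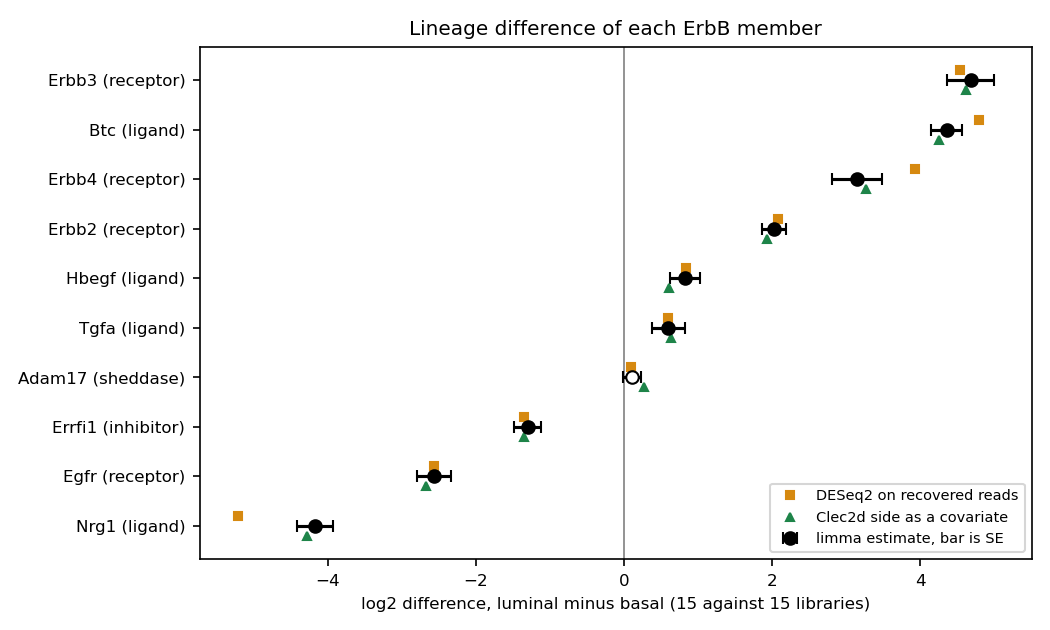
Luminal minus basal log2 difference of each member, as the limma estimate with its SE (black, open where not called), by DESeq2 on recovered reads (squares) and with the Clec2d side as a covariate (triangles). Erbb3, Btc, Erbb4 and Erbb2 lie furthest to the luminal side, Nrg1 and Egfr furthest to the basal side, and Adam17 at 0.11.

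Of the ligands, Btc and Nrg1 were read almost only in opposite lineages. Betacellulin, encoded by Btc (ENSMUSG00000082361.8, chromosome 5, 91505120 to 91550883, minus strand), ranged from 38.6 to 128 in luminal (median 68.7) and from 0 to 5.43 in basal libraries (median 2.67). The libraries did not overlap, and the log2 difference was 4.35 (SE 0.20, limma adjusted p = 4.43e-17). The mean of the luminal libraries was 27.0 times that of the basal ones, which held 41 reads in all. Groups were apart only between luminal parous K8imTmG (52.2 ± 14.5, SD, n = 5) and basal virgin K8imTmG cells (4.15 ± 1.28, SD, n = 3).

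Nrg1 (ENSMUSG00000062991.11, chromosome 8, 32303906 to 33374825, minus strand), the ligand of Erbb3 and Erbb4, was the mirror image. It ranged from 0 to 3.90 in luminal (median 0.983, 5 of 15 libraries at 0) and from 10.9 to 99.0 in basal libraries (median 40.9). The log2 difference was −4.17 (SE 0.25, limma adjusted p = 9.39e-15), and it ranged from −5.22 to −2.94 over the alternatives because the luminal lineage held only 28 reads. The mean of the basal libraries was 35.3 times that of the luminal ones. Thus the receptor Erbb3 and its ligand Nrg1 were measured in opposite lineages of the same glands. The annotation has 2 overlapping models named Nrg1, whose reads cannot be told apart.

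Hbegf and Tgfa were present in both lineages and differed less. Hbegf (ENSMUSG00000024486.8, chromosome 18, 36637980 to 36649677, minus strand) ranged from 40.3 to 224 in luminal (median 109) and from 25.7 to 142 in basal libraries (median 52.8), a log2 difference of 0.82 (SE 0.20, limma adjusted p = 0.000791). Tgfa (ENSMUSG00000029999.16, chromosome 6, 86172041 to 86252728, plus strand) ranged from 16.0 to 82.3 (median 38.1) and from 10.9 to 47.6 (median 26.4), a difference of 0.60 (SE 0.22, limma adjusted p = 0.0243). Only 3 and 5 luminal libraries, respectively, lay above every basal one. The Tgfa call was lost with array quality weights (0.41, limma adjusted p = 0.0818), with edgeR (0.52, adjusted p = 0.0521) and without the basal library of virgin K8imTmG mouse 568 (0.50) or the luminal library of mouse 538 (0.51).

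The sheddase gene Adam17 (ENSMUSG00000052593.18, chromosome 12, 21373510 to 21423672, minus strand) lay at the same height in both lineages, at 86.1 to 217 in luminal (median 124) and 55.4 to 211 in basal libraries (median 123). The log2 difference was 0.11 (SE 0.12, limma adjusted p = 0.460). It turned to −0.01 when the mouse number entered as a block, and passed the test at 0.28 (limma adjusted p = 0.0370) when all libraries were scaled to equal totals. Errfi1 (ENSMUSG00000028967.12, chromosome 4, 150938376 to 150955402, plus strand), the feedback inhibitor of Egfr, was higher in basal cells, as Egfr was. It ranged from 95.9 to 294 in luminal (median 188) and from 104 to 1005 in basal libraries (median 478), with 13 of 15 basal libraries above every luminal one. The log2 difference was −1.30 (SE 0.18, limma adjusted p = 4.50e-07).

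Whether the lineage differences depended on stage or genotype was tested with interaction terms over all 30 libraries. No member passed for stage (limma, 2 at an unadjusted p under 0.05, DESeq2 and edgeR 0), where 0.647% of genes did. The lowest p-values were those of Tgfa (−1.29, SE 0.44, limma adjusted p = 0.174) and Nrg1 (−1.36, SE 0.49, limma adjusted p = 0.205). Without the luminal library of parous K8imTmG mouse 494, which had the highest Tgfa (82.3), the Tgfa term was −1.49 and passed (limma adjusted p = 0.0338). The Nrg1 term fell to −0.69 with the mouse number as a block (limma adjusted p = 0.462) and to −0.83 with array quality weights (limma adjusted p = 0.300).

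For genotype 3 of 10 members passed, against 14.8% of genes, with the K8iΔRank minus K8imTmG difference larger in luminal than in basal cells. The term was 1.39 (SE 0.47, limma adjusted p = 0.0436) for Egfr, 1.65 (SE 0.49, limma adjusted p = 0.0266) for Nrg1 and 0.91 (SE 0.24, limma adjusted p = 0.0161) for Adam17. With the Clec2d side as a covariate none of the 3 passed, at 1.79 (limma adjusted p = 0.623), 2.05 (limma adjusted p = 0.576) and 0.31 (limma adjusted p = 0.876). This fit could estimate the side only from luminal parous K8imTmG and basal parous K8iΔRank cells, which alone held both kinds. A call lost there therefore does not tell the split from the genotype. The Egfr call was also lost with the mouse number as a block (1.12, limma adjusted p = 0.102), with array quality weights (0.78), with edgeR (1.28) and with equal totals (1.02). It was lost when any of 14 libraries was left out, at 0.97 to 1.41, namely basal 787k, 798k, 557, 820k, 825k and 568 and luminal 787k, 798k, 830k, 532, 534, 821k, 822k and 538. Luminal Nrg1 held 28 reads in all, with 13 of 15 libraries at 3 reads or fewer, so its term rests on values near the floor. The Nrg1 call was lost at a pseudocount of 4 (0.85, limma adjusted p = 0.114), with equal totals (1.31) and without the basal (1.33) or luminal (1.53) library of mouse 538, and that of Adam17 with equal totals (0.54). Equal totals shifted the median of all genes by −0.35 in this term.

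In luminal cells, the 4 comparisons between groups of stage and genotype share libraries, and each was tested on its own groups. Nrg1 was under the filter in each, which left 9 members. In virgin cells Adam17 was 119, 115 and 86.1 in K8imTmG and 151, 217 and 181 in K8iΔRank libraries. The groups did not overlap, as for 28.3% of genes, but the difference of 0.77 (SE 0.26, limma adjusted p = 0.124) did not pass. None of the 9 members was called (1 at an unadjusted p under 0.05, DESeq2 and edgeR 0), where 0.984% of genes were. With array quality weights, which called 25% of genes, Adam17 (0.59), Tgfa (0.86), Erbb2 (−0.77), Hbegf (−0.87) and Btc (−0.73) passed. The fibroblast marker sum was 713 to 852 in the K8iΔRank libraries of this comparison, and its part in the values was not tested.

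In parous luminal cells none of the 9 members was called by limma or edgeR, where 0.0991% of genes were, and 3 were at an unadjusted p under 0.05. Erbb2 was 77.3, 60.8, 52.9, 47.9 and 67.1 in K8imTmG and 73.4, 115, 101 and 113 in K8iΔRank libraries, a difference of 0.71 (SE 0.20, limma adjusted p = 0.117). DESeq2 called it (0.68, adjusted p = 0.0387), as did limma with array quality weights (0.69, adjusted p = 0.0265). Hbegf was 40.3, 123, 112, 44.7 and 98.6 against 206, 109, 129 and 224 (1.07, SE 0.38, limma adjusted p = 0.171), and Errfi1 differed by 0.62 (SE 0.23, limma adjusted p = 0.182). The groups of all 3 genes overlapped. Among Clec2d-low libraries alone the Hbegf difference was 0.52 and that of Erbb2 0.72.

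After parity, Erbb2 of control luminal cells lay below every virgin library, which held 88.4, 124 and 164. The parous minus virgin difference was −1.001 (SE 0.26, limma adjusted p = 0.0764) and just missed the threshold, and groups were apart for 16.9% of genes. The call was made by DESeq2 (adjusted p = 0.0122), with all luminal libraries in a single fit (limma adjusted p = 0.0244), among Clec2d-low libraries (−1.01, limma adjusted p = 0.0409) and without parous mouse 494 (−1.09). Of the 9 members limma and edgeR called 0, where 2.2% of genes were called, and 4 were at an unadjusted p under 0.05. The others were Egfr (1.39, SE 0.56, limma adjusted p = 0.190), Erbb3 (−0.87, SE 0.39, limma adjusted p = 0.229) and Btc (−0.91, SE 0.29, limma adjusted p = 0.119). The Egfr value was 0.55 without virgin mouse 538. With array quality weights, which called 38.8% of genes, Egfr (1.06), Erbb2 (−1.01), Erbb3 (−1.01), Btc (−0.87) and Errfi1 (−0.51) passed. The sum of 6 markers of hormone-sensing luminal cells was 9011 to 11310 in these virgin and 626 to 9516 in these parous libraries, and its part was not tested.

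In K8iΔRank luminal cells limma and edgeR called a single member, Hbegf, after parity, and DESeq2 called Hbegf and Adam17. It was 59.3, 55.8 and 99.1 in virgin and 206, 109, 129 and 224 in parous libraries, with no overlap. The difference was 1.20 (SE 0.30, limma adjusted p = 0.0234), 1 of 9 members called against 16% of genes. It missed the threshold with all luminal libraries in a single fit (limma adjusted p = 0.0942) and without parous mouse 787k (1.08) or 830k (1.03) or virgin mouse 821k (1.09) or 822k (1.05). Adam17 was lower in all 4 parous libraries (130, 95.8, 135 and 124) than in the 3 virgin ones (−0.59, SE 0.20, limma adjusted p = 0.0684), and it passed by DESeq2 (−0.62, adjusted p = 0.0465) and among genes with a mean of at least 50 (limma adjusted p = 0.0499). Tgfa differed by −0.68 (SE 0.28, limma adjusted p = 0.123, and −0.41 with equal totals). Groups of Hbegf and Adam17 were apart, as for 29.7% of genes. The fibroblast sum was 173 to 416 in the parous libraries and the Clec2d side followed the groups, so their part cannot be told apart from stage. The sum of 5 luminal progenitor markers was 781 to 1036 in these virgin and 1098 to 1843 in these parous libraries, without overlap. That of the hormone-sensing luminal markers was 5384 to 9833 and 2449 to 6357. The part of these marker sums in the Hbegf and Adam17 differences was not tested.

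The change with parity differed between genotypes for Erbb2 and Hbegf, where the genotypes also differed in the length of lactation before involution. The parous minus virgin log2 difference of Erbb2 was −1.001 in K8imTmG and 0.39 in K8iΔRank cells, and the interaction was 1.39 (SE 0.36, limma adjusted p = 0.0253). For Hbegf the values were −0.58 and 1.20, and the interaction was 1.78 (SE 0.56, limma adjusted p = 0.0486). These were 2 of 9 members called, against 12.9% of genes, and Btc (1.15, SE 0.45, limma adjusted p = 0.0941) and Adam17 (−0.85, SE 0.34, limma adjusted p = 0.0991) did not pass. With the Clec2d side as a covariate no member was called, at 1.42 (limma adjusted p = 0.186) for Erbb2 and −0.13 (limma adjusted p = 0.933) for Hbegf. Of the luminal groups only parous K8imTmG held both sides, so this fit estimated the side from that group alone and cannot tell it from the interaction. The Erbb2 call was lost without parous K8iΔRank mouse 794k or 830k, virgin K8iΔRank mouse 821k or 825k, or virgin K8imTmG mouse 538, at 1.17 to 1.32. The Hbegf call was lost, at 1.55 to 2.05, without any of 787k, 794k, 798k, 830k, 494, 557, 821k, 822k, 531, 533 and 538, and with no filter, quantile normalization and edgeR.

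**Figure D3:**
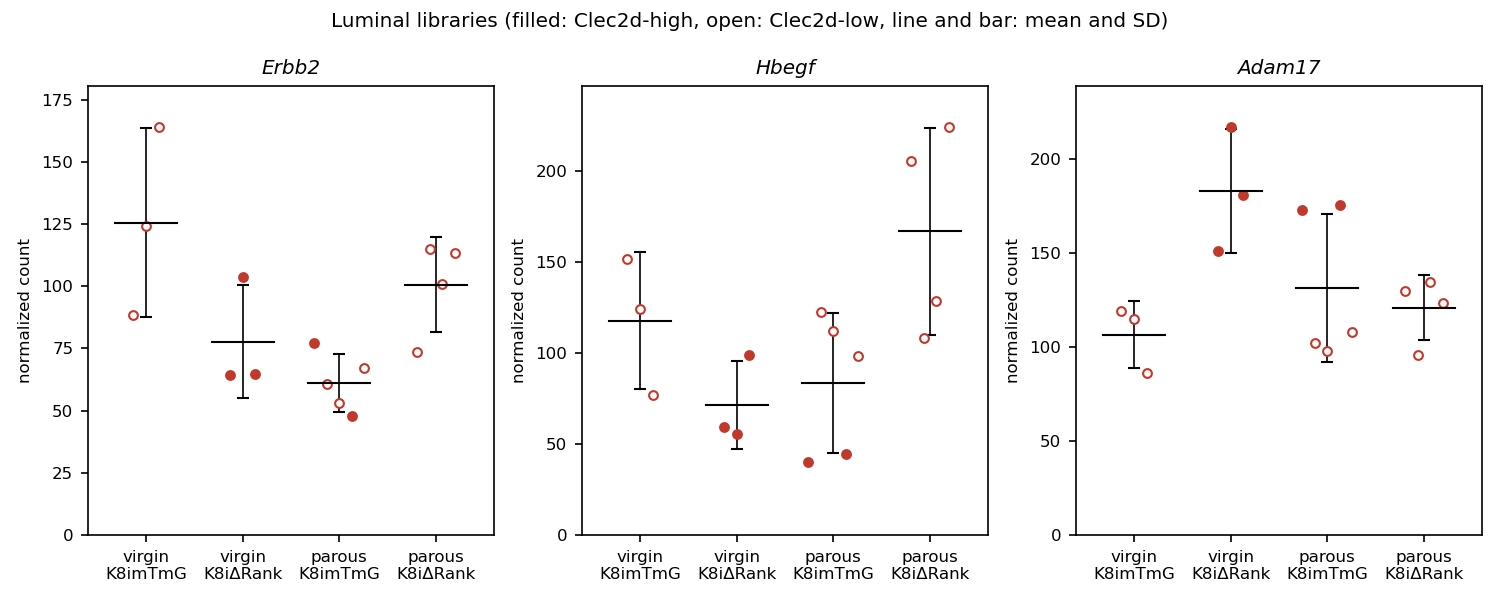
Normalized counts of Erbb2, Hbegf and Adam17 in each luminal library by stage and genotype, filled for Clec2d-high and open for Clec2d-low, with group mean and SD. Erbb2 is highest in virgin K8imTmG (126 ± 37.9), Hbegf in parous K8iΔRank (167 ± 56.8) and Adam17 in virgin K8iΔRank cells (183 ± 33.0), and in parous K8imTmG cells the filled points lie below the open ones for Hbegf and above them for Adam17.

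In basal cells, which keep Rank in both genotypes, Egfr was the only member that limma called between groups. In virgin glands it was 312, 236 and 609 in K8imTmG and 70.4, 167, 161 and 109.5 in K8iΔRank libraries, with no overlap. The difference was −1.56 (SE 0.38, limma adjusted p = 0.0363), 1 of 8 members called against 8.99% of genes. It missed the threshold with equal totals (−1.17, limma adjusted p = 0.0614), which shifted the median of all genes by 0.38. It was also lost without K8iΔRank mouse 820k (−1.30) or 825k (−1.51) or K8imTmG mouse 531 (−1.65), 538 (−1.85) or 568 (−1.17). The K8imTmG libraries were all Clec2d-high and the K8iΔRank ones all Clec2d-low, so this split cannot be told apart from genotype.

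The other members of this comparison did not pass by limma, DESeq2 or edgeR. Adam17 was 132, 211 and 152 against 55.4, 112, 131 and 98.8, without overlap (−0.76, SE 0.32, limma adjusted p = 0.143, and −0.37 with equal totals), which with Egfr made 2 of 8 members, against 28.2% of genes. Hbegf was 142, 112 and 48.9 against 66.9, 36.0, 25.7 and 61.2 (−1.04, SE 0.44, limma adjusted p = 0.149, and −0.65 with equal totals), and passed with array quality weights (−1.71, limma adjusted p = 0.0235). Erbb2 was 10.1, 33.1 and 21.7 against 57.7, 26.7, 35.9 and 50.5 (1.03, SE 0.44, limma adjusted p = 0.153), and 0.59 without mouse 531. It passed with equal totals (1.41, limma adjusted p = 0.0409). The Erbb2 values rest on 4 to 8 reads per K8imTmG library, against 43 to 53 per K8iΔRank library. Groups of Hbegf and Erbb2 overlapped.

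In parous basal cells none of 7 members was called (1 at an unadjusted p under 0.05, DESeq2 and edgeR 0), where 0.906% of genes were. Errfi1 was 205, 401, 104 and 478 in K8imTmG and 413, 614, 637 and 559 in K8iΔRank libraries, a difference of 1.11 (SE 0.39, limma adjusted p = 0.131) that was 0.69 without mouse 557. It passed only with equal totals (1.44, limma adjusted p = 0.0494), which shifted the median of all genes by 0.31. Adam17 was 123 to 139 against 90.1 to 119, without overlap as for 12% of genes (−0.36, SE 0.18, limma adjusted p = 0.268), and was −0.19 among Clec2d-high libraries and −0.03 with equal totals. The basal markers summed to 10952 to 11931 in the K8iΔRank and 13580 to 15763 in the K8imTmG libraries of this comparison, and the luminal markers to 1329 to 1422 and 733 to 1110. Neither sum overlapped, and their part in these values was not tested. Egfr of parous K8imTmG cells was 218, 185, 645 and 175, and 645, from mouse 557, was far from the others. That library had 0 Erbb3 and the lowest Errfi1 (104) of all basal libraries.

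After parity no member was called in basal cells by limma, DESeq2 or edgeR. In K8imTmG cells 0% of 10538 genes were called and 3 of 7 members were at an unadjusted p under 0.05, namely Hbegf (−1.18, SE 0.38, limma adjusted p = 0.405), Errfi1 (−1.24, SE 0.45, limma adjusted p = 0.427) and Nrg1 (1.13, SE 0.50, limma adjusted p = 0.527). Leaving out virgin mouse 538 or 568 moved the Nrg1 value to 1.77 or 0.52, and leaving out parous mouse 557 that of Errfi1 to −0.82. The virgin K8imTmG libraries held only 2 to 18 reads of Nrg1. In K8iΔRank cells 0% of 10525 genes were called and again 3 of 7 members were at an unadjusted p under 0.05. Erbb2 was 57.7, 26.7, 35.9 and 50.5 in virgin and 20.6, 11.2, 23.8 and 14.0 in parous libraries, without overlap as for 6.1% of genes (−1.25, SE 0.32, limma adjusted p = 0.379). Nrg1 was 12.7, 37.8, 25.1 and 12.9 against 67.3, 32.7, 40.9 and 54.8 (1.20, SE 0.37, limma adjusted p = 0.469), and Tgfa differed by 0.85 (SE 0.31, limma adjusted p = 0.487). The genotype by stage interaction was called for none of 7 members (2 at an unadjusted p under 0.05, DESeq2 and edgeR 0) and for 0% of 10607 genes, and its lowest p-values were those of Hbegf (1.55, SE 0.51, limma adjusted p = 0.388) and Errfi1 (1.42, SE 0.55, limma adjusted p = 0.421).

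**Figure D4:**
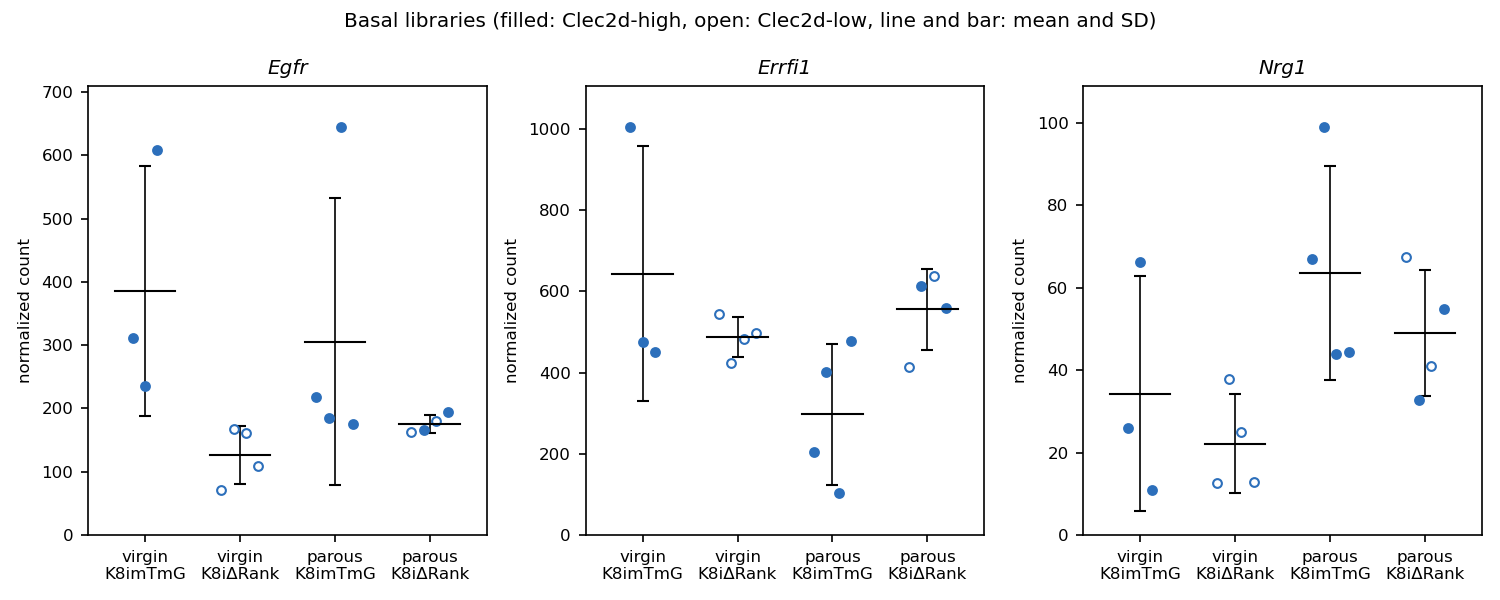
Normalized counts of Egfr, Errfi1 and Nrg1 in each basal library by stage and genotype, filled for Clec2d-high and open for Clec2d-low, with group mean and SD. Egfr of the 4 virgin K8iΔRank libraries (70.4 to 167) lies below the 3 virgin K8imTmG ones (236 to 609), and 1 parous K8imTmG library reaches 645.

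The other ErbB ligands in the table were Areg and Nrg2, 2 of a list of 7. Amphiregulin, encoded by Areg, the Egfr ligand of ductal growth, ranged from 71.5 to 1729 in luminal and from 4.19 to 61.8 in basal libraries (4.96, SE 0.26, limma adjusted p = 4.99e-16). Nrg2 was higher in basal cells (−2.57, SE 0.20, limma adjusted p = 6.70e-12), as Nrg1 was. Areg fell after parity in K8iΔRank luminal cells, from 1532 ± 223 (SD, n = 3) to 648 ± 129 (SD, n = 4), by 1.25 on the log2 scale (SE 0.21, limma adjusted p = 0.00458). The sum of hormone-sensing luminal markers was 5384 to 9833 in these virgin and 2449 to 6357 in these parous libraries, and its part was not tested. The Clec2d side followed these groups and cannot be told apart from stage. In K8imTmG luminal cells its parity difference was −1.86 at an unadjusted p under 0.05 and was not called.

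The counts of pathway genes that follow stand against 28.7% of all genes called toward luminal and 27% toward basal cells. Of 6 genes of ligand release, 2 were higher in luminal and 1 in basal cells, with a median of 0.39 where that of all genes was 0.04. The sheddase Adam10 (2.12, limma adjusted p = 2.55e-13) and the Adam17 partner Rhbdf2 (0.65, limma adjusted p = 0.000406) were the former, and Timp3, an inhibitor of Adam17, the latter (−1.88, limma adjusted p = 1.51e-10). Of 14 genes of receptor turnover and inhibition, 3 were higher in luminal and 7 in basal cells (median −0.42). The receptor inhibitor Lrig1 (−1.56, limma adjusted p = 6.12e-11) and the Erk pathway inhibitors Spred1 (−1.58, limma adjusted p = 1.75e-16) and Spry1 (−2.44, limma adjusted p = 4.87e-11) were basal, like Errfi1. The phosphatase Ptpn1 (1.12, limma adjusted p = 3.99e-09), the scaffold Erbin (0.36, limma adjusted p = 0.00147) and Socs4 (0.40, limma adjusted p = 0.0188) were luminal.

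Of 20 signal transducers 2 were higher in luminal, 4 in basal and 14 in neither (median −0.04). The adaptor Gab2 (2.47, limma adjusted p = 3.37e-08) and the kinase Pik3cb (1.20, limma adjusted p = 5.77e-08) were luminal, and Plcg1 (−1.61, limma adjusted p = 2.57e-12), Ptpn11 (−0.72, limma adjusted p = 7.52e-07) and Hras (−1.11, limma adjusted p = 1.55e-06) basal. Of 9 genes known to follow Erk activity 3 were higher in luminal and 5 in basal cells (median −0.91). Cyclin D1, encoded by Ccnd1, ranged from 854 to 2662 in luminal and 43.5 to 500.5 in basal libraries (3.06, limma adjusted p = 1.82e-11), and Dusp4 (2.87, limma adjusted p = 1.16e-09) and Phlda1 (0.85, limma adjusted p = 0.00110) were also luminal. Etv5 ranged from 32.7 to 106 in luminal and 190.2 to 778 in basal libraries (−2.73, limma adjusted p = 6.75e-15), with Etv4 (−2.12, limma adjusted p = 1.49e-08) and the inhibitor Spry2 (−0.91, limma adjusted p = 2.27e-06) on the same side. The output genes thus did not follow a single lineage.

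**Figure D5:**
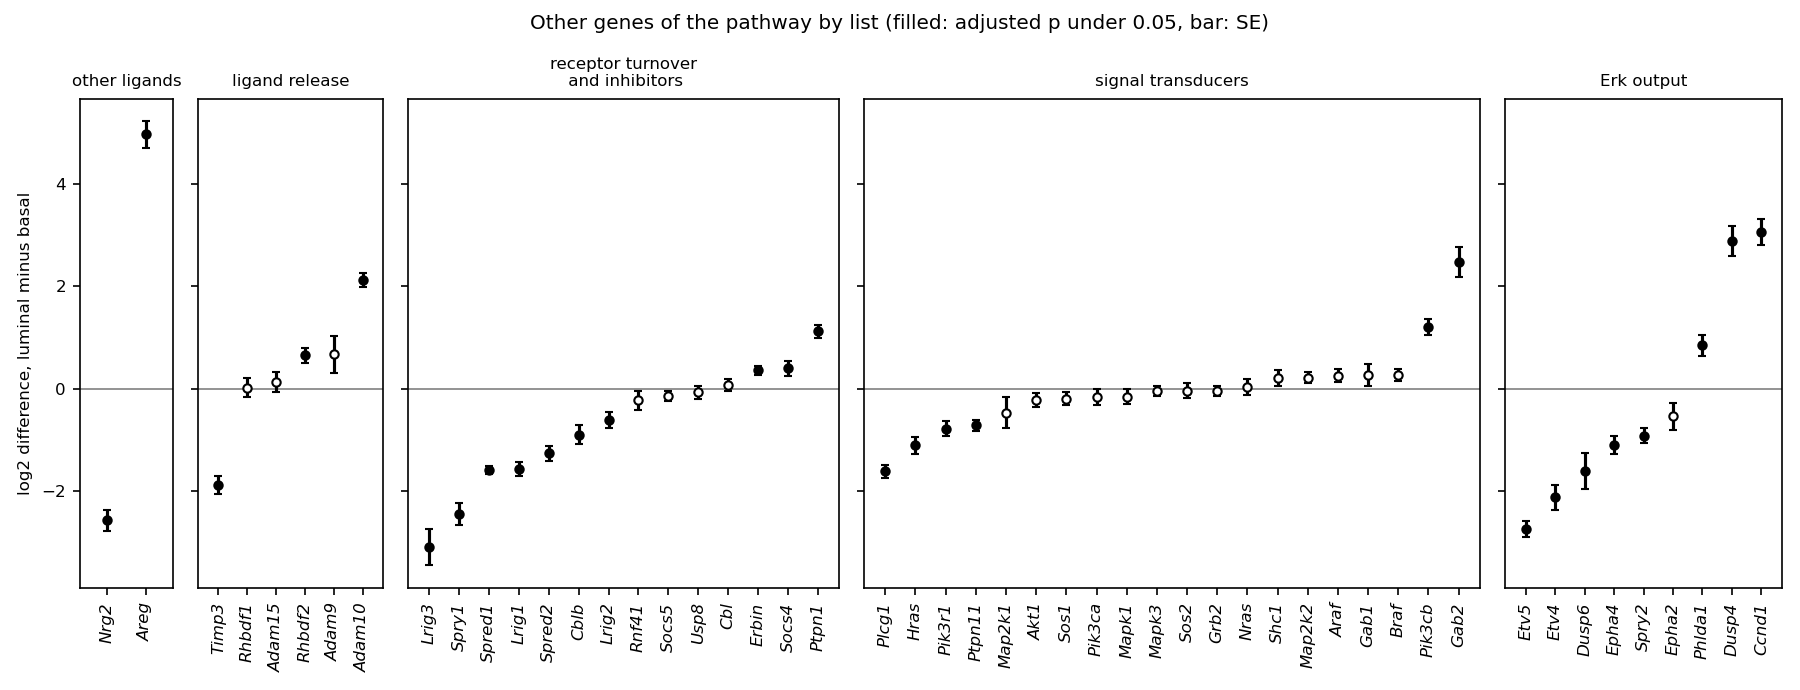
Luminal minus basal log2 differences of the genes of each pathway list, sorted within the list, with their SE and filled where called by limma. The list of receptor turnover and inhibitors (median −0.42) and that of Erk output (median −0.91) lie mostly on the basal side of the line at 0, and the signal transducers (median −0.04) around it.

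Between groups of stage and genotype limma called 17 genes of these lists, counted by comparison, and 3 of these calls held without any single library. In virgin basal cells limma called 6 of 49 list genes, against 8.99% of genes. The phosphatase Ptpn1 (1.29, adjusted p = 0.0341), the phospholipase Plcg1 (1.19, adjusted p = 0.0177), Lrig3 (0.99, adjusted p = 0.0497), Spred1 (0.70, adjusted p = 0.0479) and Epha4 (1.18, adjusted p = 0.0362) were higher in K8iΔRank libraries, and the phosphatase Ptpn11 (−0.86, adjusted p = 0.0289) was lower. Of these calls edgeR kept 3, and lost Lrig3 (adjusted p = 0.0540), Spred1 (adjusted p = 0.0618) and Epha4 (adjusted p = 0.0569). In 7 fits without a library, Lrig3 and Spred1 were called in 0 and Epha4 in 1. In parous basal cells 1 of 49 was called, against 0.906% of genes. Nrg2 was lower in K8iΔRank, at 39.5 ± 13.5 against 104 ± 28.4 (SD, n = 4 each), a difference of −1.40 (adjusted p = 0.0495). It was called in 5 of 11 alternatives, not by edgeR (−1.40, adjusted p = 0.0572), and in 2 of 8 fits without a library. Here the sum of basal markers was lower and that of luminal markers higher in K8iΔRank libraries, with no overlap, and their part in the Nrg2 difference was not tested. After parity in K8iΔRank luminal cells 8 of 50 were called, against 16% of genes. Only Areg, Adam10 and Epha4 were called here in all 7 fits without a library. The Clec2d side followed these groups, as it did those of virgin basal cells, and cannot be told apart from stage or genotype. Beside Areg, Adam10 (−1.04, adjusted p = 0.00606), Map2k1 (−1.83, adjusted p = 0.0177), Nras (−0.98, adjusted p = 0.0201) and Spred2 (−1.14, adjusted p = 0.0251) were lower, and Adam15 (0.80, adjusted p = 0.0412), Sos2 (0.77, adjusted p = 0.0240) and Epha4 (1.39, adjusted p = 0.0119) were higher. In control luminal cells 2 of 50 were called, against 2.2% of genes, with Ptpn1 lower (−1.56, adjusted p = 0.0240) and the Pi3k subunit Pik3r1 higher (1.46, adjusted p = 0.0227) after parity. Between genotypes none of 49 list genes was called by limma or edgeR in virgin luminal cells (10 at an unadjusted p under 0.05, 2 called by DESeq2) or in parous luminal cells (14 and 4). After parity in basal cells limma and edgeR called none in K8imTmG (9 at an unadjusted p under 0.05, 1 called by DESeq2) or in K8iΔRank cells (6 and 0). These unadjusted and DESeq2 counts are not set against the share over all genes, and no excess of list genes is read from them.

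The genes whose log2 values ran most like each member over the 30 libraries were ranked among genes with a mean of at least 50 normalized counts. The libraries share their lineage, depth and Clec2d side, and the correlations are descriptions. Erbb3 ran with Cldn4 (r = 0.96) and Krt19 (0.95), which are luminal junction and keratin genes, and Arg2 (0.95). Erbb4 ran with Elf5 (0.91), a factor of luminal progenitors and alveolar cells, Plb1 (0.90) and Nectin4 (0.90). Btc was closest to Basp1 (0.97), Clcn3 (0.96) and the claudin gene Cldn8 (0.96), and Erbb2 to Myh14 (0.94), Dtx4 (0.94) and Os9 (0.92). On the basal side Egfr was closest to Amotl1 (0.94), Epb41l2 (0.93) and Igfbp7 (0.92), Nrg1 to Sobp (0.95), Pros1 (0.95) and Sema6d (0.95), and Errfi1 to Tiparp (0.89), Arhgap42 (0.89) and Cd36 (0.87). Hbegf (Ppp2ca, 0.79) and Tgfa (Nabp1, 0.70) had the weakest leading neighbours, and Adam17 ran with Nono (0.90).

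After the mean of each group was subtracted, Errfi1 was closest to the immediate early gene Fosb (0.84) and to Mcl1 (0.79), Hbegf to the NF-κB subunit gene Rela (0.85) and to Pcf11 (0.83), Erbb2 to Shisa5 (0.86) and Taok3 (0.85), and Adam17 to Nono (0.92) and Pon2 (0.91). Among the 45 pairs of members such correlations ran from −0.48 to 0.72 with a median of 0.00, and 2 exceeded 0.5, Erbb3 with Errfi1 (0.72) and Egfr with Erbb4 (0.52). Egfr and Errfi1 had a correlation of 0.83 in the 15 luminal and −0.68 in the 15 basal libraries. The luminal library of virgin K8imTmG mouse 538 had the lowest Egfr (5.15) and the lowest Errfi1 (111) of its group. The basal library of parous K8imTmG mouse 557 had the highest Egfr (645) and the lowest Errfi1 (104) of its group. The weight of these libraries in the correlations was not tested. Subtracting group means leaves the Clec2d split inside luminal parous K8imTmG and basal parous K8iΔRank cells, and also the differences in depth. Their part in these correlations was not tested.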

How the data were processed

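Luminal and basal cells sorted from single mice were profiled with QuantSeq 3′ libraries (30 samples). Per the labels and the methods, the authors trimmed reads with BBDuk, checked them with FastQC 0.11.9, removed duplicates by UMI with UMI-tools, aligned to GRCm39 with Bowtie2, counted with Gencode vM26 and divided by DESeq2 size factors. The deposited values are therefore a normalized signal, and genes above 10 in at least 25% of samples were kept. All values of every library were whole multiples of 1 step (tolerance 0.01 read), so reads were recovered, and 3 reads were taken as the floor. Counting of UMI reads sets the precision of low values, and depth per library is given with the results.

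Groups follow lineage, stage and genotype in the labels. limma 3.58.1 (R 4.3.3) with a mean-variance trend was run on log2(normalized count + 1) of genes above 10 in at least 25% of the libraries fitted, with Benjamini-Hochberg adjustment over all genes tested. Differences on this scale understate those of low genes. Every member was described, and its difference outside the lineage comparison was printed where an adjusted or unadjusted p was under 0.05 or the groups did not overlap. Pathway genes were named for the lowest adjusted p, at most 3 per direction, or a call between groups. Counts of members or list genes at an unadjusted p under 0.05, or called by DESeq2 or edgeR, stand without the share over all genes. No excess is read from them. Members, lists and tests were chosen with earlier results of these data known. As alternatives the pseudocount was set to 0.5 or 4, the filter was dropped or replaced by a mean of 50 or more, and quantile normalization, equal library totals, array quality weights, edgeR 4.0.16 and DESeq2 1.42.0 on recovered reads, a single fit per lineage, libraries of 1 Clec2d side, the side as a covariate, the mouse number as a block, and leaving out each library were tried. The side as a covariate within the genotype by stage interactions was added after seeing the data. Titles give the same mouse number to both lineages of 13 mice, which pairs these libraries by animal. The correlation of their deviations from group means ran from −0.24 to 0.34 (median 0.09), with 6 over 0.1. Tests were tried on simulated data. Coordinates are those of GENCODE vM39 and start regions those of RefSeq (GRCm38.p6). Figures were drawn with matplotlib 3.10.9. The levels of different genes were not compared, and some pathway genes are not reported here.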

Additional observations from a re-analysis of the deposited data

Results flagged for a closer look

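In 3 of 50 checked combinations of a member and a group of 4 or 5 libraries, 1 library lay far from the rest of its group, and chance alone sets about 1 in 20 groups apart in this way. Egfr was 645 normalized counts in the basal library of parous K8imTmG mouse 557, against 175 to 218 in the others. Erbb4 was 41.5 (13 reads) in the luminal library of the same mouse, against 15.9 to 22.9 (12 to 53 reads). Erbb2 was 8.02 in the basal library of parous K8imTmG mouse 534, against 14.7 to 15.9. That value is 3 reads, at the floor, against 4 to 13 reads in the others, so it rests on few reads.

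The parity difference of luminal cells differed between genotypes for Erbb2 (interaction 1.39 on the log2 scale, limma adjusted p = 0.0253) and Hbegf (1.78, limma adjusted p = 0.0486). The genotype difference differed between lineages for Egfr (1.39, limma adjusted p = 0.0436), Nrg1 (1.65, limma adjusted p = 0.0266) and Adam17 (0.91, limma adjusted p = 0.0161). None of these interaction calls held with the Clec2d side as a covariate, which was estimated only from the groups that held both sides. All but that of Adam17 were also lost when certain libraries were left out, and luminal Nrg1 held only 28 reads in all. In virgin glands the Adam17 difference between K8iΔRank and K8imTmG was 0.77 in luminal and −0.76 in basal cells, with no overlap between the groups in either lineage, and this difference between the lineages in virgin glands alone was not tested. In both lineages the virgin libraries with the higher Adam17 were those on the Clec2d-high side.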

How the results depend on the processing

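Of the lineage differences, those of Egfr, Erbb2, Erbb3, Erbb4, Hbegf, Btc, Nrg1 and Errfi1 kept their direction and call under every alternative run. Over all printed differences of members, 417 values of other settings kept direction and call, 18 lost and 16 gained a call and 3 turned sign, and leaving out a library gave 669, 43, 3 and 0. The sign turned for Adam17 between lineages with the mouse number as a replicate block (−0.00719), and with the Clec2d side as a covariate for Hbegf (−0.13) and Adam17 (0.21) in the luminal genotype by stage interaction. With the same animals paired as a block, 9 members were called between lineages, 2 (Nrg1 and Adam17) in the lineage by genotype interaction, where Egfr was lost (1.12, limma adjusted p = 0.102), and 0 in the lineage by stage interaction, and no other call changed.

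The number of members called moved as follows. Between lineages it was 5 of 6 tested with a mean of at least 50. With array quality weights it was 5 in luminal parity of K8imTmG cells, 5 in virgin and 1 in parous luminal genotype, and 2 in virgin basal genotype, and over all genes the calls rose from 226 to 3993, 99 to 2514, 10 to 1147 and 954 to 1339. DESeq2 gave 1 in parous luminal genotype, 1 in luminal parity of K8imTmG and 2 in that of K8iΔRank cells, which also had 2 with a mean of at least 50 and 0 with all luminal libraries in a single fit. Luminal parity of K8imTmG cells gave 1 with the single fit and 1 with Clec2d-low libraries. Equal totals gave 1 in parous basal genotype and 1 in the lineage by genotype interaction. The luminal genotype by stage interaction gave 1 with no filter, with quantile normalization and with edgeR. The Clec2d covariate, estimated only from the groups that held both sides, gave 0 in both interactions. Leaving out each library gave 8 to 9 members between lineages, 0 to 1 in each of luminal parity of K8imTmG, luminal parity of K8iΔRank, virgin basal genotype and lineage by stage, 0 to 2 in luminal genotype by stage, 1 to 3 in lineage by genotype and 0 elsewhere. Equal totals moved the share of higher calls over all genes from 47.5% to 85.1% in virgin basal genotype, 34.4% to 85.4% in parous basal genotype, 51.5% to 81.7% in luminal parity of K8iΔRank, 51.5% to 63.2% between lineages, 63.6% to 27.3% in virgin luminal genotype, 55.5% to 73.6% in luminal genotype by stage and 49.0% to 16.5% in lineage by genotype, and the cause was not tested. Depth limits Nrg1 in luminal and Erbb3, Erbb4 and Btc in basal cells, where most comparisons between groups were left out by the filter. Basal Erbb2 also rests on few reads, 4 to 8 per library in virgin and 3 to 13 in parous K8imTmG cells. The basal library of virgin K8imTmG mouse 568 held 2 reads each of Nrg1 and Tgfa.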
